A study of Mus musculus with 5 samples.

Results

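The genes described here are Nkx2-5 and 9 transcription factors or cofactors that act with it in heart muscle: Gata4, Gata6, Tbx5, Tbx20, Mef2c, Hand2, Srf, Myocd and Hopx. They were chosen by name, and all 10 were found by gene symbol among the 40624 genes of the deposited count table. RNA was sequenced from atria of C57BL/6 mice at postnatal day 1. The 2 mutant libraries (5 and 7) came from SLN-Cre; Nkx2-5-flox/flox atria, and the 3 control libraries (2, 4 and 6) came from SLN-Cre; Nkx2-5-flox/+ atria. All 5 libraries therefore carried the Cre, and the controls carried 1 floxed allele. Sln encodes sarcolipin and is expressed in atrial muscle cells, so cells of other types in the tissue were not the intended site of deletion. The labels do not say whether a library came from 1 animal or a pool, so the p-values below measure the spread between these samples.

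NKX2-5 is a homeodomain protein that binds DNA in cardiac muscle together with GATA4, the T-box factor TBX5 and serum response factor (SRF). These proteins recognise different short DNA motifs and often occupy the same enhancers of muscle genes. Several of them also regulate each other's genes, and they are needed at different steps of chamber formation, septation and conduction system development. HOPX, an unusual homeodomain protein that does not bind DNA, acts on SRF by protein contact, and myocardin (Myocd) is a coactivator of SRF.

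The libraries held 78841494 and 69648013 gene counts in mutants 5 and 7, and 58501214 to 60899334 in the 3 controls. Atrial myosin light chain transcripts were abundant in every library, with Myl7 at 10817 and 9949 CPM (library-size-scaled counts, as described under processing) in mutants 5 and 7. The controls had 10285 to 11075 CPM of Myl7, while the ventricular light chain gene Myl2 stood at 18.5 and 8.26 CPM in the mutants and at 22.3, 16.3 and 95.9 CPM in controls 2, 4 and 6, so that control 6 stood apart. Myl3, which encodes another light chain of ventricular muscle, had 22.3 and 15.4 CPM in the mutants, against 124, 67.2 and 145 CPM in the controls. These groups did not overlap, but the log2 fold change of -2.57 ± 0.47 (SE) did not pass (adjusted p = 0.0764, edgeR). Other ventricular markers moved in both directions. Of the list of 6, 3 had a positive and 3 a negative log2 fold change, and 1 rose, Hey2. Besides Myl3, the negative ones were Myl2 (-1.74) and Irx4 (-1.49, at 0.117 to 0.894 CPM), and neither passed edgeR's test. The 6 summed to 2695 and 2319 CPM in the mutants and 1938 to 2516 CPM in the controls. Most of each sum was Myh7, at 2616 and 2258 CPM in the mutants and 1846 to 2266 CPM in the controls. Among marker lists of other cell types, the epicardial, fibroblast and erythroid sums did not overlap between the groups. Endothelial sums were apart only narrowly, and leukocyte and neural sums overlapped. Over all tested genes, 3.02% rose and 3.57% fell by the edgeR test described below. The 8 epicardial markers summed to 811 and 845 CPM in the mutants, against 1369.7, 1325 and 1189 CPM in the controls, and 6 of the 8 fell. The 8 fibroblast markers summed to 8467 and 8628 CPM in the mutants, against 10642 to 12103 CPM in the controls, and 3 of the 8 fell. The fibroblast count was 6 with libraries scaled by sarcomere genes and 5 with DESeq2. It was 2 at a threshold of 0.01 or without any 1 control. The 7 erythroid markers summed to 1786 and 1752 CPM in the mutants and 1114 to 1461 CPM in the controls, with 1 of 7 higher. That count was 0 without control 2 or control 4, and 4 without control 6 or with DESeq2. Of the 8 endothelial and endocardial markers 1 rose, Tie1, a call lost without any 1 control. None of the 8 rose with library totals alone or with libraries scaled by sarcomere genes. They summed to 1788 and 2123 CPM in the mutants and 1605 to 1784 CPM in the controls. The 7 leukocyte markers summed to 198 and 167 CPM in the mutants and 156 to 171 CPM in the controls, and 2 of the 7 rose. The leukocyte count was 0 without mutant 7 or any 1 control, and 0 when scaled by sarcomere genes. The 7 neural and Schwann cell markers summed to 23.2 and 25.5 CPM in the mutants and 18.5 to 27.7 CPM in the controls, and 0 of the 7 were called. No marker of these lists of other cell types stood at 0. The 15 cardiac sarcomere genes used as a muscle reference summed to 54229 and 50104 CPM in the mutants and 46063 to 48842 CPM in the controls. Tnnc1, 1 of the 15, had only 14 to 19 reads per library (0.220 to 0.305 CPM). In atrial tissue, fewer cells of a type and less RNA per cell cannot be told apart.

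**Figure D1:**
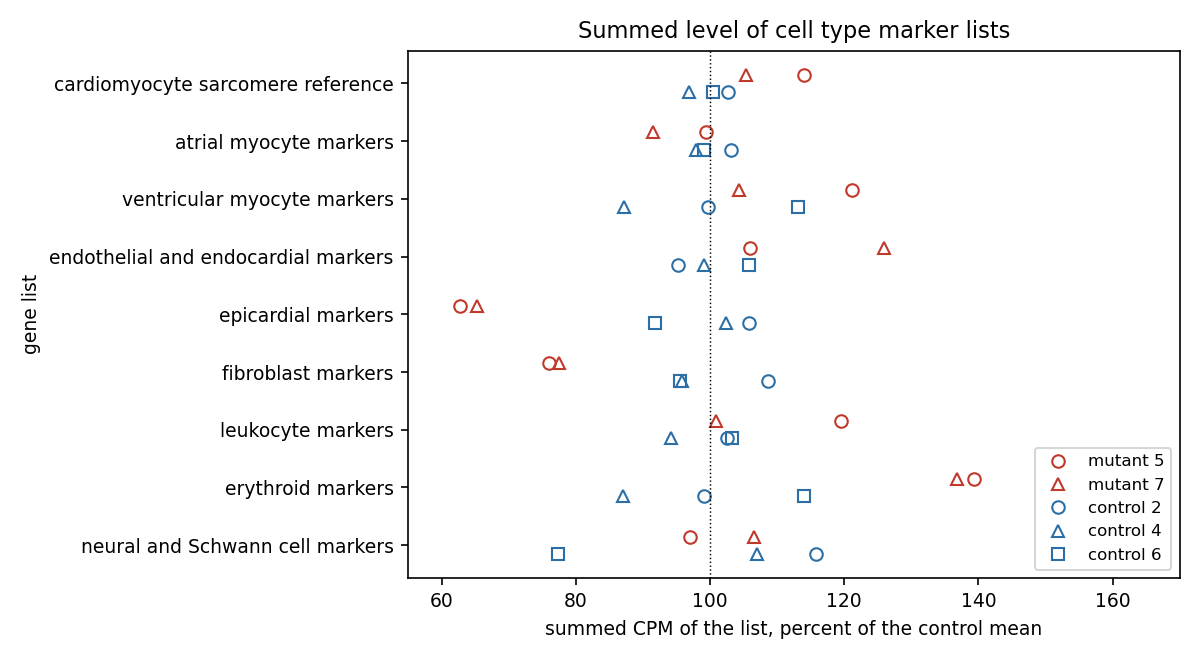
Summed CPM of each cell type marker list in each library, as a percent of the control mean of that list (x axis); each point is 1 library. Epicardial markers stood at 62.7% and 65.3% in mutants 5 and 7 and fibroblast markers at 76.0% and 77.4%, below all 3 controls, while erythroid markers stood at 139% and 137%, above all 3.

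The targeted gene was much lower in mutant atria, Hopx was also lower, and Tbx20 and Mef2c were higher; the remaining 6 factors did not pass the test. Each gene was tested in a fit over all 17835 genes that passed a filter on low counts. The test was edgeR's quasi-likelihood test, and a gene was called at a Benjamini-Hochberg adjusted p under 0.05. All 10 factors passed the filter, with at least 356 counts in every library. Of the 10, 2 rose and 2 fell. Among all tested genes 3.02% rose and 3.57% fell, 6.58% in both directions together. The median log2 fold change of the 10 factors was 0.15, against 0.01 for all tested genes. Mutant and control ranges did not overlap for 7 of the 10, compared with 37.9% of all tested genes. In 4 of these the mutants lay above the controls (18.6% of all tested genes) and in 3 below (19.2%).

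**Figure D2:**
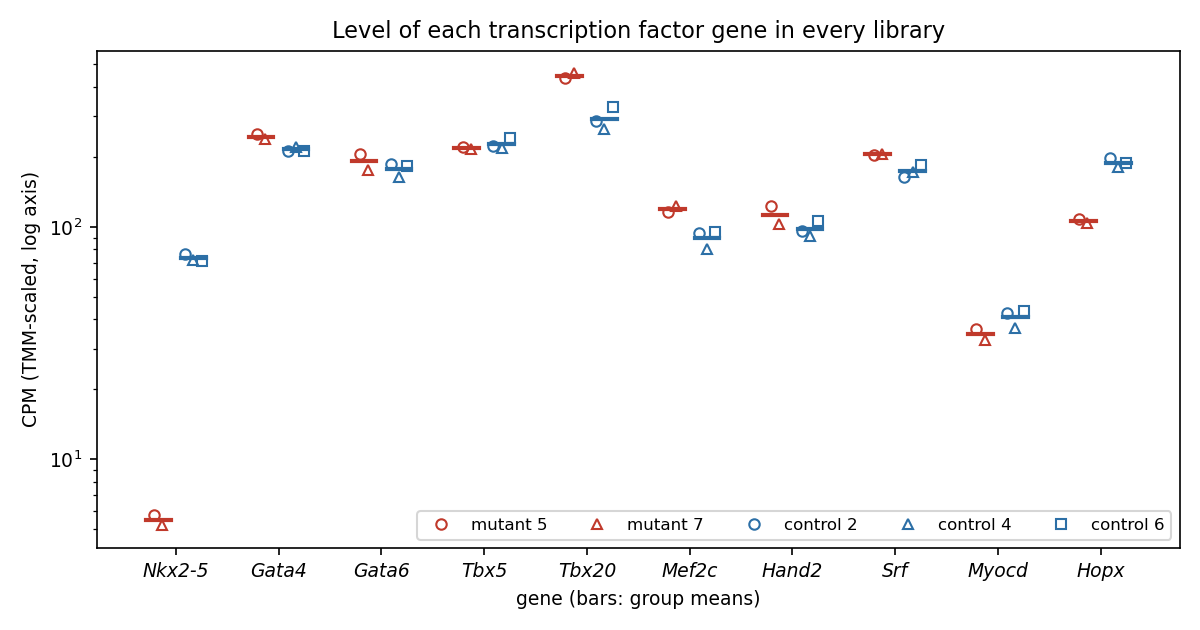
CPM of each factor in each library (log axis), mutants left of controls, with bars at group means. Nkx2-5 lies at 5.79 and 5.21 CPM in mutants 5 and 7, against 71.3 to 76.8 CPM in the controls, while Tbx5 lies between 217 and 241 CPM in all 5 libraries.

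Nkx2-5 (ENSMUSG00000015579; chromosome 17, 26975967 to 26978300, minus strand, mm9) had 452 and 356 reads in mutants 5 and 7. Controls 2, 4 and 6 had 4525, 4288 and 4389 reads. On the CPM scale it stood at 5.79 and 5.21 in the mutants, against 76.8, 72.1 and 71.3 in the controls. The groups were far apart, and each was tight within itself. The mean was 5.50 ± 0.408 CPM (SD, n = 2) in mutants and 73.4 ± 2.95 CPM (SD, n = 3) in controls, so 7.50% of the control level remained. That level is the one of SLN-Cre; Nkx2-5-flox/+ atria, not of atria with 2 unfloxed alleles. The log2 fold change was -3.74 ± 0.09 (SE), with a 95% interval of -3.95 to -3.52. It had the smallest p of all 17835 tested genes (adjusted p = 7.03e-07, edgeR's quasi-likelihood test). Which part of the gene the remaining reads came from cannot be read from counts per gene. Start and end here are those of the deposited table, which for 9 of the 10 factors have exactly the length of the coding span.

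Within a library, the ratio of Nkx2-5 reads to Tbx5 reads does not depend on how libraries are scaled. It was 0.0262 and 0.0240 in mutants 5 and 7, against 0.344, 0.331 and 0.296 in controls 2, 4 and 6. Both mutants lay far below every control.

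Neither chromosomal neighbour of Nkx2-5 passed the test. Bnip1, a gene of membrane trafficking and mitochondria, is the nearest tested gene on the left, 46885 bases away by listed coordinates. Its levels were 28.2 and 27.6 CPM in mutants 5 and 7, and 27.8, 28.1 and 26.0 CPM in controls 2, 4 and 6, so the groups overlapped. Its log2 fold change of 0.03 ± 0.08 (SE) did not pass edgeR's test (adjusted p = 0.86). Kifc5b, a kinesin gene 75913 bases to the right, averaged 19.1 ± 1.24 CPM in mutants (SD, n = 2) and 16.1 ± 1.41 CPM in controls (SD, n = 3). It did not pass either (log2 fold change 0.25 ± 0.10 SE, adjusted p = 0.20, edgeR).

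Hopx (ENSMUSG00000059325; chromosome 5, 77516764 to 77524034, minus strand, mm9) had 8429 and 7075 reads in mutants 5 and 7 and 11701, 10731 and 11580 reads in controls 2, 4 and 6. These correspond to 108 and 104 CPM in the mutants, against 198, 180.4 and 188 CPM in the controls. Both mutants lay well below the lowest control, and the mutant mean was 56.0% of the control mean. Hopx fell by 0.84 ± 0.07 (SE) on the log2 scale, with a 95% interval of -0.99 to -0.68 (adjusted p = 5.48e-04, edgeR's quasi-likelihood test). Its p ranked 30 among the tested genes. The ratio of Hopx to Tbx5 reads was 0.489 and 0.476 in the mutants and 0.891, 0.827 and 0.781 in the controls. Hopx shares 412 exonic bases with Hopxos, an antisense gene with only 22 and 15 reads of its own in the mutants and 13 to 29 in the controls. No source used here says if reads were counted by strand, so how reads from the shared bases were assigned cannot be told.

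Tbx20 and Tbx5 encode T-box proteins, which bind DNA through a shared domain. Tbx5 is needed for atrial and septal development, and Tbx20 for growth of the chambers and for keeping chamber muscle distinct from other myocardium. Tbx20 (ENSMUSG00000031965; chromosome 9, 24529896 to 24578289, minus strand, mm9) stood at 438 and 458 CPM in mutants 5 and 7. It stood at 285, 264 and 327 CPM in controls 2, 4 and 6. The groups did not overlap, although control 6 lay above the other controls. Tbx20 rose 1.54-fold (95% interval 1.32 to 1.78), a log2 fold change of 0.62 ± 0.09 (SE; adjusted p = 7.45e-03, edgeR's quasi-likelihood test).

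Tbx5 (ENSMUSG00000018263; chromosome 5, 120286923 to 120333496, plus strand, mm9) gave the smallest fold change of the 10. It stood at 221 and 217 CPM in the mutants and at 223, 218 and 241 CPM in the controls, so the groups overlapped. The log2 fold change was -0.05 ± 0.07 (SE) and did not pass (adjusted p = 0.747, edgeR). The 95% interval, 0.864-fold to 1.08-fold, leaves room for a moderate change but not for one as large as that of Tbx20 or Hopx. The difference between Tbx20 and Tbx5 was also present within libraries. There were 1.98 and 2.11 Tbx20 reads per Tbx5 read in mutants 5 and 7, against 1.28, 1.21 and 1.36 in controls 2, 4 and 6.

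Gata4 and Gata6 encode zinc finger proteins that bind GATA motifs and share many cardiac targets. Gata4 (ENSMUSG00000021944; chromosome 14, 63819212 to 63859985, minus strand, mm9) stood at 252 and 238 CPM in mutants 5 and 7, against 213, 220.3 and 213 CPM in controls 2, 4 and 6. The mutants lay just above the controls. The log2 fold change of 0.19 ± 0.06 (SE; 95% interval 0.04 to 0.33) did not pass over all genes (adjusted p = 0.138, edgeR). Gata6 (ENSMUSG00000005836; chromosome 18, 11054071 to 11084480, plus strand, mm9) stood at 207 and 176 CPM in the mutants and at 186, 164 and 183 CPM in the controls. Mutant 5 was the highest library and mutant 7 lay within the control range. Its log2 fold change of 0.11 ± 0.09 (SE) did not pass (adjusted p = 0.542, edgeR), and it turned to -0.01 without mutant 5. The ratio of Gata6 to Gata4 reads was 0.823 and 0.740 in the mutants and 0.871, 0.744 and 0.859 in the controls, and these ranges overlapped.

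Mef2c and Srf belong to the MADS-box proteins, which bind A/T-rich DNA. MEF2C is an early activator of muscle genes, and SRF binds the CArG box in genes of the cytoskeleton and of muscle. Mef2c (ENSMUSG00000005583; chromosome 13, 83714835 to 83802236, plus strand, mm9) stood at 116 and 123 CPM in mutants 5 and 7, against 94.0, 80.6 and 95.4 CPM in controls 2, 4 and 6. Both mutants lay above every control. Mef2c rose 1.33-fold (95% interval 1.17 to 1.51), a log2 fold change of 0.41 ± 0.08 (SE; adjusted p = 0.0221, edgeR's quasi-likelihood test). The call was lost without mutant 7 (adjusted p = 0.0873), control 2 (0.057) or control 4 (0.071) in edgeR, at log2 fold changes of 0.33 to 0.44.

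Srf (ENSMUSG00000015605; chromosome 17, 46686032 to 46692777, minus strand, mm9) stood at 203 and 207 CPM in the mutants and at 164, 173 and 185 CPM in the controls. The groups did not overlap, but the log2 fold change of 0.24 ± 0.07 (SE; 95% interval 0.08 to 0.40) did not pass (adjusted p = 0.0892, edgeR). Myocd (ENSMUSG00000020542; chromosome 11, 64991947 to 65083200, minus strand, mm9) was the least abundant partner by reads, at 36.3 and 32.7 CPM in mutants 5 and 7. Controls 2, 4 and 6 had 42.6, 36.7 and 43.7 CPM. Mutant 5 lay only just under control 4. The log2 fold change of -0.25 ± 0.10 (SE; 95% interval -0.47 to -0.03) did not pass (adjusted p = 0.19, edgeR).

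The relation between the coactivator and its DNA-binding partner was also read within libraries. There were 0.178 and 0.158 Myocd reads per Srf read in mutants 5 and 7, against 0.259, 0.212 and 0.236 in controls 2, 4 and 6, and the groups did not overlap. The ratio of Mef2c to Srf reads was 0.572 and 0.594 in the mutants and 0.572, 0.466 and 0.515 in the controls. Here mutant 5 and control 2 had the same value to 3 digits. Permuting the labels of 2 and 3 libraries gives an exact two-sided p of 0.1 at the smallest, and the ratios are given as a description.

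Hand2 encodes a basic helix-loop-helix factor of the developing heart. It (ENSMUSG00000038193; chromosome 8, 59800704 to 59802657, plus strand, mm9) stood at 123 and 103 CPM in mutants 5 and 7, against 95.8, 91.4 and 106 CPM in controls 2, 4 and 6. Mutant 7 lay below control 6, so the groups overlapped. The log2 fold change of 0.21 ± 0.09 (SE; 95% interval -0.01 to 0.42) did not pass (adjusted p = 0.262, edgeR). By GENCODE vM21, 461 exonic bases of Hand2 are shared with Hand2os1 on the opposite strand, a gene not listed under its identifier in the deposited table.

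**Figure D3:**
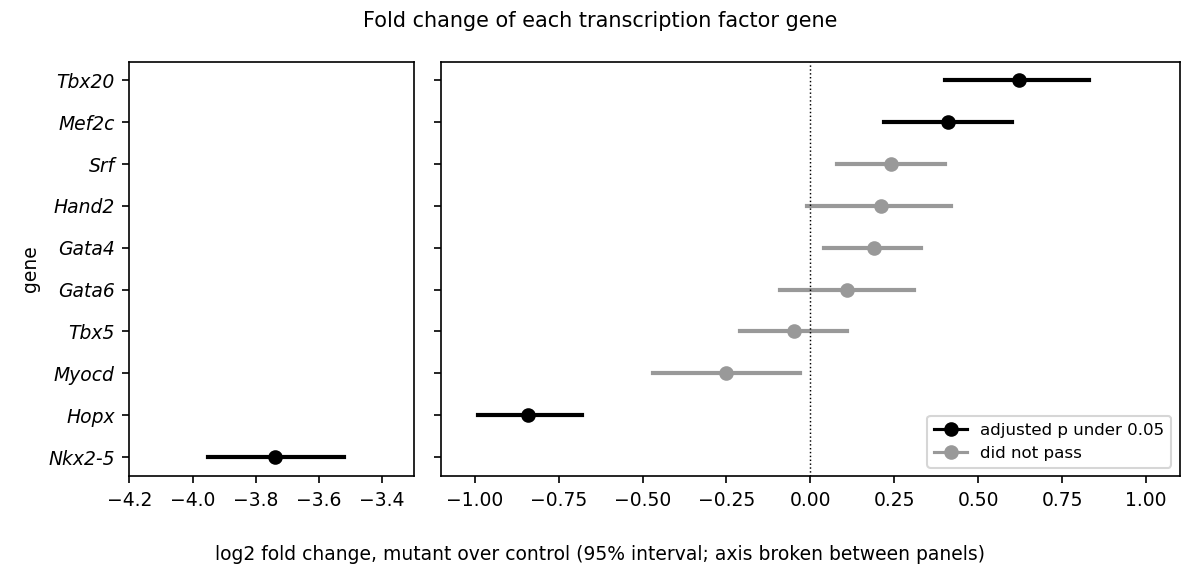
Log2 fold change of each factor, mutant over control, with its 95% interval (x axis, broken between panels); black marks adjusted p under 0.05 in edgeR's test. Hopx at -0.84 and Tbx20 at 0.62 lie farthest from 0 among the partners, and the intervals of Hand2, Gata6 and Tbx5 include 0.

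Without adjustment over genes, 7 of the 10 factors, the targeted Nkx2-5 among them, had p under 0.05 in edgeR's test, compared with 20.8% of all tested genes. Besides the 4 that passed, these were Gata4, Srf and Myocd, whose intervals exclude 0. With DESeq2, 6 of the 10 were called, where 11.2% of all tested genes were. The additional calls were Gata4 (adjusted p = 0.0389) and Srf (adjusted p = 0.0251, both DESeq2). The authors' deposited table gave adjusted p-values of 3.5e-162 for Nkx2-5, 2.2e-12 for Hopx, 2.2e-05 for Tbx20 and 0.0034 for Mef2c. In that table the other 6 had adjusted p-values of 0.24 to 1.

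Scaling the libraries by the 15 sarcomere genes, in place of all genes, moved the median of all tested genes to -0.13 on the log2 scale. Actc1, Csrp3, Myh6, Pln, Ryr2, Tnnc1 and Tnnt2 of the 15 are also among the reported direct targets of the factors listed below. This reference is therefore not independent of the factors. On this muscle-based scale Nkx2-5 (-3.87) and Hopx (-0.97) were lower and Tbx20 (0.49) was higher in mutants by edgeR's test, with adjusted p-values of 2.11e-06, 4.03e-04 and 0.0235. Mef2c (0.28) did not pass (adjusted p = 0.081, edgeR). Myocd (-0.38) fell (adjusted p = 0.0386, edgeR), and Gata6 took a log2 fold change of -0.02. The part of the lower epicardial and fibroblast markers in the values of the 10 factors was not tested.

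**Figure D4:**
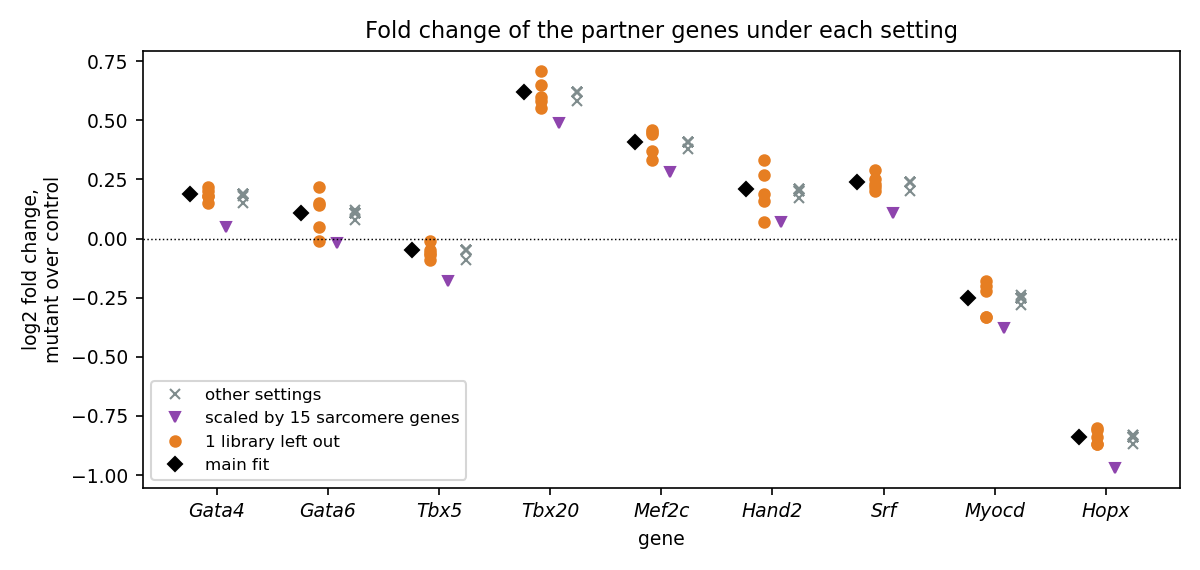
Log2 fold change of the 9 partner genes, mutant over control (y axis), under each setting; points are settings. Tbx20, Mef2c and Hopx stayed on 1 side of 0 in every setting drawn, whereas Gata6 reached -0.02.

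Levels can be compared between genes only per length. With the gene lengths of the deposited table, Tbx20 had the highest mean level in both groups. Its mean was 99.7 CPM per kilobase in mutant and 64.9 in control libraries. In controls, Hopx (59.3), Tbx5 (57.7) and Gata6 (55.6 CPM per kilobase) followed, and neighbours in the order from Tbx20 to Gata6 overlapped between libraries. Nkx2-5 came next at 48.1, overlapping Hand2 at 43.8, which overlapped Srf at 42.5 CPM per kilobase. Gata4 (33.6), Mef2c (7.34) and Myocd (3.15 CPM per kilobase) then each lay below the whole range of the gene before. In mutants the mean of Nkx2-5 was 3.61 CPM per kilobase, position 9 of 10, and Hopx moved to position 7 with 33.2.

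This order depended strongly on the gene lengths. GENCODE vM21 gives Tbx20 11997 exonic bases where the deposited table has 4495, and Hopx 1516 where the table has 3188. With the GENCODE lengths, Hopx had the highest control mean, at 125 CPM per kilobase, and Tbx20 took position 8 of 10 in controls with 24.3. Nkx2-5 held position 5 in controls with both lengths, at 42.7 CPM per kilobase by GENCODE. Mef2c and Myocd held the lowest 2 positions in controls with both. Fold changes between groups do not involve the length.

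**Figure D5:**
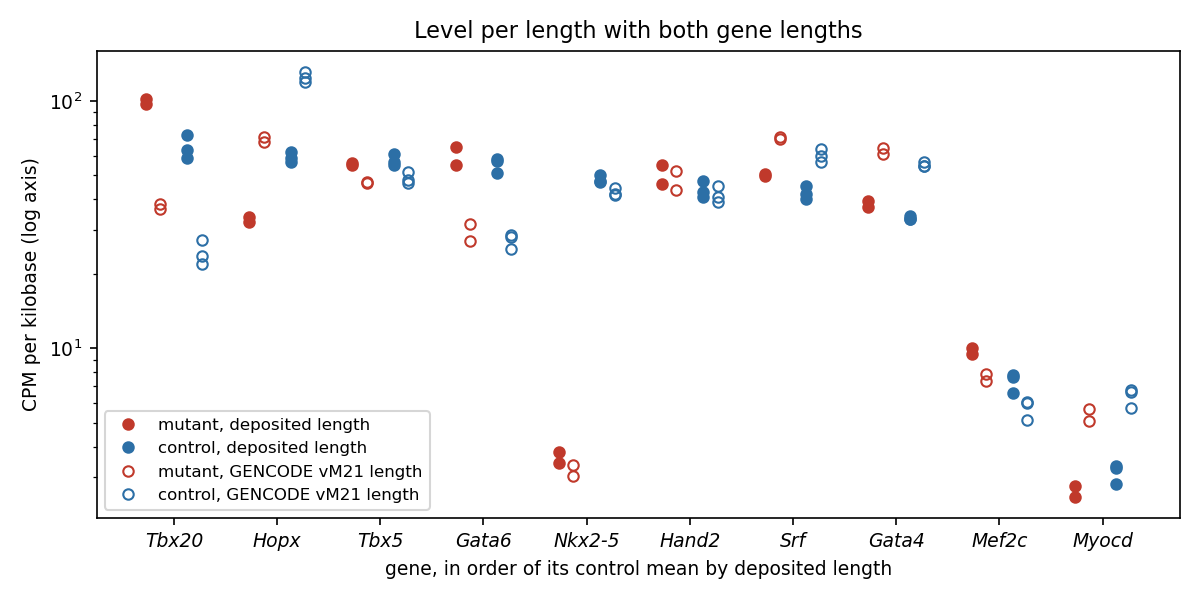
CPM per kilobase of each factor (log axis) in mutant (left) and control (right) libraries, by the deposited gene length (filled) and the GENCODE vM21 exonic length (open). Tbx20 has the highest control mean by the deposited length and position 8 of 10 by the other, while Mef2c and Myocd lie low in controls with both.

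RefSeq promoter entries (GRCm38.p6) were found for 6 of the 10 factors: Nkx2-5, Tbx20, Mef2c, Hand2, Srf and Hopx. Printed here are those of the partner genes with the largest fall and the largest rise and that of Srf, whose protein binds the CArG box. Each runs over the 250 bases before the start, 5′ to 3′ on the gene's strand, and capitals mark a CArG box.
Hopx: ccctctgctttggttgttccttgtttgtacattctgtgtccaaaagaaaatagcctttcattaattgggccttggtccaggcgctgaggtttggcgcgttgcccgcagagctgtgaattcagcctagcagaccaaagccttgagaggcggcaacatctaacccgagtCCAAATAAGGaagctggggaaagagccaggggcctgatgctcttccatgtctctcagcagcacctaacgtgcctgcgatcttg
Tbx20: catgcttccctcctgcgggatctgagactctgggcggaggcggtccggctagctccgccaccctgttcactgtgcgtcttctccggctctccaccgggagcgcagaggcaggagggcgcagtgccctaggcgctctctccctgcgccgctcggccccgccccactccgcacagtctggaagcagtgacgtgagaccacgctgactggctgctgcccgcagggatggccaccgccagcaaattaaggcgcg
Srf: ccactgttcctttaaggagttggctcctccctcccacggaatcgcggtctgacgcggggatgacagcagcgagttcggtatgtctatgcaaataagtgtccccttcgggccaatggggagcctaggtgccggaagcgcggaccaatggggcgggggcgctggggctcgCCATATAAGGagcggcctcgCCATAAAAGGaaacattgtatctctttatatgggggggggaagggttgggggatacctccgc
The Hopx stretch is chr5:77115124-77115373, that of Tbx20 chr9:24774304-24774553 and that of Srf chr17:46556163-46556412, all on the minus strand.

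Hopx carried 1 CArG box, CCAAATAAGG, 83 to 74 bases before its upstream start, the one printed, and none before its second start. The bases just after the upstream start were not found in a GENCODE vM21 transcript of Hopx, while those after the second start were. Which start the counted reads came from cannot be read from counts per gene. Srf carried 2, CCATATAAGG at 82 to 73 bases and CCATAAAAGG at 62 to 53 bases before its start. A CArG box was present in 1.47% of all 32851 entries. The NKX2-5 motif TNAAGTG, searched on both strands, was in none of the 9 entries of the 6 genes, and in 10.1% of all entries. The T-box motif AGGTGTGA was also in none of the 9, and in 1.12% of all entries, and the MEF2 site in none and 2.92%. The GATA motif GATAA occurred 2 times in the Hand2 entry and 2 times in the second of the 3 Mef2c entries, against a match in 22.6% of all entries. The start of that Mef2c entry was likewise not found in a GENCODE vM21 transcript of Mef2c. Such matches describe letters in a short window only.

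Relatives of the 10 factors were read from a list of 24 genes, most of them of the same families. The list also held the homeobox genes Isl1 (log2 fold change -0.93) and Irx4 (-1.49), of other families. Of the 24, 14 were tested and 0 were called by edgeR with the filter and libraries used throughout, or by limma-voom. DESeq2 called 2, and 11.2% of all tested genes. In edgeR 5 had an unadjusted p under 0.05, compared with 20.8% of all tested genes. In edgeR, 1 rose with no filter or with a filter of 1 CPM in 2 libraries, and 1 rose and 1 fell without control 6. Their median log2 fold change was -0.02, against 0.01 for all tested genes, and their mean was -0.16. Nkx2-3, Nkx2-4, Nkx2-6 and Mef2b had 0 reads in all 5 libraries. A count of 0 allows up to 3 reads, or 0.0384 to 0.0509 CPM per library, for counting error only. Mkl2, a myocardin relative that coactivates SRF, stood at 51.5 and 54.6 CPM in mutants 5 and 7, against 42.6 to 44.6 CPM in the controls. It did not pass (log2 fold change 0.28 ± 0.07 SE, adjusted p = 0.0501, edgeR). With 1 library left out, the log2 fold change of Mkl2 was 0.23 to 0.32. Gata5 stood at 22.3 and 23.7 CPM in the mutants and 17.7 to 20.6 CPM in the controls. Tbx2, a T-box repressor, stood at 7.06 and 8.42 CPM in the mutants and 9.39 to 9.68 CPM in the controls. Nkx2-9, a relative of Nkx2-5, was near the detection limit at 0.128 and 0.117 CPM in the mutants and 0.227 to 0.509 CPM in the controls.

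Cofactors and regulators of the factors formed a list of 46 genes, 41 of them tested. Of these 2 rose, 1 fell and 38 did not pass, while 3.02% of all tested genes rose and 3.57% fell. The median log2 fold change was 0.06, against 0.01 for all tested genes. With the sarcomere scaling 0 rose and 3 fell, where 242 of all 17835 tested genes rose and 1354 fell. Smarcd3, a subunit gene of the BAF chromatin remodelling complex that works with GATA4 and TBX5, rose by 0.31 ± 0.07 (SE) on the log2 scale. Foxm1, a transcription factor gene of dividing cells, rose by 0.39 ± 0.07. Foxm1 lost its call without control 2, 4 or 6, and Smarcd3 without any of these or mutant 7 (highest adjusted p = 0.097, edgeR). Csrp3, the muscle LIM protein gene, stood at 1357 and 1269 CPM in the mutants and 1526 to 1659 CPM in the controls and did not pass (adjusted p = 0.0874, edgeR).

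Among 50 genes reported as direct cardiac targets of 1 or more of the factors, 6 rose, 9 fell and 35 did not pass. The 35 include Tnnc1 (14 to 19 reads per library) and Fgf10 (2 to 12), both near the detection limit. Among all tested genes 3.02% rose and 3.57% fell. The list had a median log2 fold change of -0.03, against 0.01 for all tested genes, and a mean of -0.16. Hey2, a repressor gene of the Notch pathway, stood at 36.4 and 34.5 CPM in mutants 5 and 7, against 5.48 to 6.56 CPM in the controls. The natriuretic peptide gene Nppb stood at 94.6 and 121 CPM in the mutants and 415 to 527 CPM in the controls, and Nppa at 849 and 1194 CPM against 5281 to 6769 CPM. Lrrc10, a cardiac leucine-rich repeat gene, stood at 7.64 and 5.43 CPM in the mutants and 32.5 to 44.4 CPM in the controls. All 4 kept their calls without any 1 control. The 6 rises became 2 without control 4 and 3 with the sarcomere scaling. Of all tested genes, 203 of 17712 and 242 of 17835 rose in these fits.

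Targets of SRF and myocardin in smooth muscle and the cytoskeleton numbered 23. Of these 4 rose, 1 fell and 18 did not pass, and 20 of the 23 had a positive log2 fold change, with a median of 0.28. Among all tested genes 3.02% rose and 3.57% fell, with a median of 0.01. Acta2, the smooth muscle actin gene, stood at 1693 and 1244 CPM in mutants 5 and 7, against 435, 432 and 366 CPM in controls 2, 4 and 6, a rise of 1.84 ± 0.14 (SE) on the log2 scale. Synpo2, an actin-bundling protein gene, rose by 0.40 ± 0.06, and Pdlim7, a LIM domain gene of the cytoskeleton, by 0.43 ± 0.09. Acta2 and Synpo2 kept their calls without any 1 control. For Pdlim7 it was lost when mutant 5, mutant 7, control 2 or control 6 was left out, with adjusted p up to 0.105 in edgeR. The rises numbered 2 with the sarcomere scaling and 11 with DESeq2, where 242 and 960 of all 17835 tested genes rose.

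The genes whose profile over the 5 libraries lay nearest to that of Nkx2-5 were 2210020M01Rik, the basement membrane anchor gene Lad1 and Lrrc10. Likeness was the root mean square difference of log2 CPM from the control mean over the 5 libraries, taken over genes whose log2 CPM averaged 1 or more. It was 0.14 for 2210020M01Rik, 0.31 for Lad1 and 0.74 for Lrrc10. 2210020M01Rik stood at 1.93 and 1.87 CPM in mutants 5 and 7, against 33.0, 27.6 and 30.3 CPM in controls 2, 4 and 6. Lad1 stood at 2.15 and 2.58 CPM in the mutants and at 27.8, 28.3 and 19.7 CPM in the controls.

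Among the nearest tested neighbours of the other 9 factors, 1 of 18 was called, compared with 6.58% of all tested genes. Arhgap44, a gene 15807 bases from Myocd by listed coordinates, stood at 25.1 and 24.5 CPM in mutants 5 and 7, against 32.9, 29.8 and 30.5 CPM in controls 2, 4 and 6. Arhgap44 passed as lower in mutants, with a log2 fold change of -0.33 ± 0.08 (SE; adjusted p = 0.0463, edgeR), a call lost when any 1 library was left out (adjusted p = 0.0536 to 0.17).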

How the data were processed

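Polyadenylated RNA of newborn mouse atria was sequenced in 5 libraries. Per the labels' protocols, RNA was purified with Trizol and RNeasy columns and libraries were made with the TruSeq RNA kit. The submitters' processing notes name TopHat2 2.0.4, HTSeq 0.5.4p3, DESeq and the mm9 genome, without their roles. Raw counts of reads for each gene were deposited by library. The deposited RPKM values are pooled per group: they equal summed counts per kilobase over a total that includes unassigned reads. The deposited log2 ratio, p-value and adjusted p-value of each gene are the authors' own. The rows no_feature and ambiguous (3.97% to 6.03% and 2.31% to 3.18% of counts) were left out.

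The analysis of the counts used edgeR 4.0.16 (R 4.3.3): filterByExpr (minimum count 10, minimum total 15), TMM scaling, a robust quasi-likelihood fit and Benjamini-Hochberg adjustment over 17835 genes, threshold 0.05. CPM values are counts per TMM-scaled library size. The standard error is the log2 fold change over the root of F. The method was tested on simulated data. Alternatives used DESeq2 1.42.0, limma-voom (limma 3.58.1), other scalings and filters, thinning and leaving out each library. Sequences are from RefSeq. GENCODE vM21 (GRCm38) served for exon lengths, coding spans, overlaps and a search of its transcripts for the RefSeq starts. The 10 genes and the lists were chosen with earlier results of these data known, so list counts are descriptions. Named genes are the 10 factors, the 4 with the smallest p of each list of relatives, cofactors and targets, the 3 profiles nearest to Nkx2-5, its neighbours and called neighbours of the others, and markers are named beside results they touch. Some genes that this rule names are not reported here.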

Additional observations from a re-analysis of the deposited data

How the results depend on the processing

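Nkx2-5, Hopx and Tbx20 kept their direction and their call under all 14 alternatives, with log2 fold changes of -3.87 to -3.67, -0.97 to -0.80 and 0.49 to 0.71. Mef2c kept its direction (0.28 to 0.46) and lost its call under 5. The number of factors that rose, 2 with the settings of the report, was 1 with the sarcomere scaling or a threshold of 0.01, 4 with DESeq2, and 1 to 2 with 1 library left out. The number that fell was 2 to 3. Gata6 took a log2 fold change of -0.02 with the sarcomere scaling and -0.01 to 0.22 with 1 library left out. Over all genes, 538 rose and 636 fell with the settings of the report. With library totals alone 449 rose and 799 fell, with the sarcomere scaling 242 rose and 1354 fell, with DESeq2 960 and 1044, and at a threshold of 0.01 157 and 234. With 1 library left out, 203 to 910 rose and 306 to 804 fell. The causes of these shifts were not tested, apart from the stricter threshold itself. No paired analysis was possible because the groups share no replicate number. The fewest reads of a factor in a library were 356, for Nkx2-5 in mutant 7.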
